A study of Mus musculus with 16 samples.

Results

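The nucleolar ribosome biogenesis genes are a set of 39 mouse genes whose proteins make or assemble ribosomes in the nucleolus. They were chosen by gene symbol, with earlier results of these data known. The set covers nucleolar scaffold proteins, RNA polymerase I subunits, the 2 classes of small nucleolar ribonucleoproteins and assembly factors of the small and large ribosomal subunits. Of these 39 genes, 36 had at least 1 probe on the array, 56 probes of 25697 in all. Polr1b, Wdr43 and Utp20 were not analysed here.

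The samples were 8 mouse B cell lymphomas measured on Illumina bead arrays, 4 of the genotype Eµ-Myc and 4 of the genotype Eµ-Myc Wrn Δhel/Δhel, all labelled as strain C57B6. All 8 tumours therefore carried the Eµ-Myc transgene, in which an immunoglobulin heavy chain enhancer drives Myc in the B lineage. The second group, called Wrn here, also carried on both copies of Wrn the Δhel allele, which lacks part of the helicase domain of this RecQ DNA helicase. The titles give each tumour a letter, E or L, which the labels leave unexplained. The E tumours are numbers 1 and 3 of Eµ-Myc and numbers 2 and 4 of Wrn, and the other 4 are L. Age and sex of the mice are not given in the labels, and it is not stated whether each tumour is from a different mouse. The p-values thus reflect how far these samples spread, which may be technical.

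Ribosome synthesis starts in the nucleolus, where RNA polymerase I transcribes the ribosomal RNA precursor. Box C/D particles, with fibrillarin (Fbl), Nop56 and Nop58, methylate this precursor, and box H/ACA particles, with Gar1, Nhp2 and Nop10, convert uridines to pseudouridine. Processome factors then cut it and fold the small subunit, while other factors, among them the Pes1, Bop1 and Wdr12 complex, build the large subunit. Myc is known to drive many of these genes in B cells, and enlarged nucleoli are a familiar feature of Myc-driven tumours.

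Because Myc and Max bind the E-box CACGTG, which reads the same on both strands, promoters were searched for it. RefSeq windows from 250 bases before to 50 bases after the start site, on GRCm38.p6, were found for 31 of the member genes, and 5 of them (16.1%) held the motif: Imp4, Nop2, Pes1, Tsr1 and Grwd1. Of all 27025 genes with a window 8.09% held it (7.15% of all 32851 windows), and of the 6298 tested genes with a window 12.1% did. Among the tested members with a window, 5 held it and 23 did not. A match describes the letters and does not show that Myc binds there. The 5 genes are set against Myc signal later. Grwd1 is counted above, but its stretch is left out because the start of its window lies inside the annotated span of the gene. The stretches around the motif in the other 4 genes are shown, and the capitals mark the motif.
Imp4, small subunit processome, motif 121 bases before the start, chr1:34439661-34439760, plus strand: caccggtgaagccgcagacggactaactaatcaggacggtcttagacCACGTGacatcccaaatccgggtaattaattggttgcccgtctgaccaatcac
Nop2, large subunit rRNA methyltransferase, motif 60 bases before the start, chr6:125131776-125131875, plus strand: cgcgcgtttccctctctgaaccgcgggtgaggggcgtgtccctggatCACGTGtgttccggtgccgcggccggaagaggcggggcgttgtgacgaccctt
Pes1, large subunit, motif 2 bases after the start, chr11:3963965-3963994, plus strand: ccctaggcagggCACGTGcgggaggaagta
Tsr1, small subunit, motif 24 bases after the start, chr11:74898092-74898121, plus strand: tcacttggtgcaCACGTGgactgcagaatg

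The number of arrays limits the precision. Between 10607 and 11369 probes per array (41.3% to 44.2%) were detected at a detection p-value under 0.01, and the median bead intensity lay between 49.9 and 52.8. B cell markers were present in every tumour, with 10 of 12 listed genes tested and Pax5 not detected. Their mean log2 signal ranged from 9.13 to 9.66 in Eµ-Myc and from 9.36 to 10.41 in Wrn. Among markers of other cells, Eµ-Myc tumour 2 had the highest T cell (8.03), macrophage (8.52) and erythroid (10.44) means. These means rest on 4 of 11 listed T cell, 12 of 14 macrophage and 3 of 7 erythroid genes. The T cell genes Cd4, Cd8a and Trat1 and the erythroid gene Klf1 were not detected on any array. Myc itself stood at 9.08, 6.92, 8.77 and 8.91 in Eµ-Myc tumours 1 to 4 and at 8.77, 9.13, 8.50 and 8.73 in Wrn tumours 1 to 4, on the log2 scale. Eµ-Myc tumour 2 was thus the tumour with the lowest Myc signal, apart from the other 7.

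Most nucleolar genes were well measured in every tumour. Of the 36 genes with a probe, 32 (49 probes) passed the filter of detection on at least 4 of 8 arrays, and all 32 were detected on all 8. Nop16, Wdr12 and Bysl were not detected on any array. Rrs1, a large subunit factor, was detected on 2 arrays, 1 of each genotype. Signals below are log2 values after background correction and quantile normalization, with an offset of 16 that compresses changes of dim probes. Each gene is given by its brightest tested probe, and levels of different probes cannot be ranked. Because whole tumours were measured, fewer cells of a type and less RNA per cell cannot be told apart in any of the values.

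The first comparison, named in the series' design, was between the genotypes. No nucleolar gene was called as different between Wrn and Eµ-Myc tumours. None of the 32 was called by limma at a Benjamini-Hochberg adjusted p under 0.05 over all tested probes (0.0261% of all 7665 tested genes were), and none had an unadjusted p under 0.05 (3.85% of all tested genes did). In none did the 4 tumours of each genotype fail to overlap, which 2.1% of all tested genes showed. The difference, Wrn minus Eµ-Myc, lay above 0 for 16 of the 32 genes (51.1% of all tested genes) and ran from −0.55 for Nop14 to 0.60 for Ncl, with a median of −0.027 against 0.0069 over all tested genes. With each array only scaled to its median in place of quantile normalization, 9 of the 32 lay above 0 and the median was −0.078. Over all 7665 tested genes, 3577 then lay above 0 and the median was −0.020. With cyclic loess 12 of the 32 and 3782 of all 7665 lay above 0. Without Eµ-Myc tumour 2, which had the lowest values of 11 of the genes, 10 of the 32 lay above 0 and the median was −0.12. Of all 7523 genes tested without it, 3774 lay above 0, with a median of 0.0014. The 95% interval stayed within 1 log2 unit of 0, a doubling or halving in signal, for 28 of the 32 genes (84.3% of all tested genes) and within 0.5 log2 units for 8 (15.9%). The 4 genes with intervals reaching past 1 log2 unit were Ncl, Pes1, Nop14 and Rrp12.

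**Figure D1:**
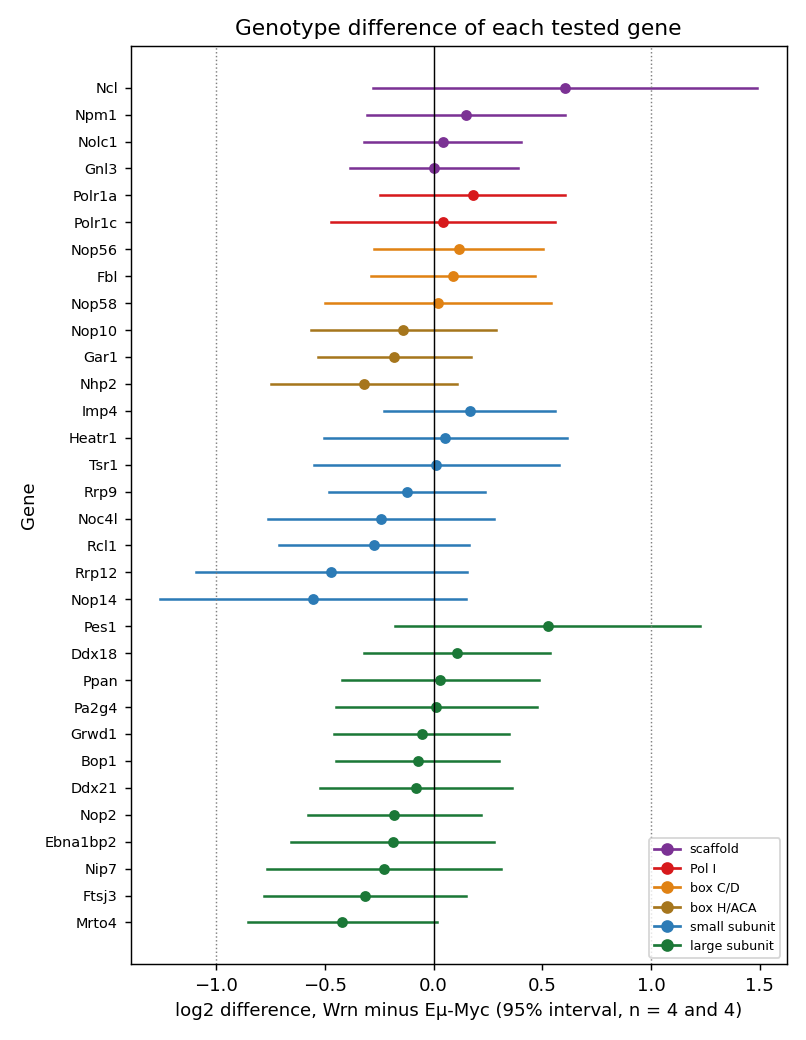
Difference in log2 signal between genotypes (x axis, Wrn minus Eµ-Myc) for each of the 32 tested genes (y axis), as the limma estimate with its 95% interval, coloured by role. All 32 intervals include 0, and those of Ncl, Pes1, Nop14 and Rrp12 reach past 1 log2 unit, marked by the dotted lines.

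Among the scaffold proteins of the nucleolus, nucleolin (Ncl), which binds nascent ribosomal RNA, varied most. Its log2 signal was 9.93, 9.63, 10.73 and 8.42 in Eµ-Myc tumours 1 to 4 and 10.45, 9.98, 10.56 and 10.12 in Wrn tumours 1 to 4. Only Eµ-Myc tumour 4 lay far below the rest, and the genotypes overlapped. The means were 9.68 ± 0.96 (SD, n = 4) in Eµ-Myc and 10.28 ± 0.27 (SD, n = 4) in Wrn, a difference of 0.60 ± 0.40 (SE, limma, adjusted p = 0.973, exact two-sided permutation p = 0.286). Without Eµ-Myc tumour 4 the difference was 0.18. The second Ncl probe followed the first over the tumours (r = 0.98) and differed by 0.47 ± 0.38 between genotypes (SE, limma, adjusted p = 0.973).

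Nucleophosmin (Npm1), a histone and ribosomal protein chaperone of the outer nucleolus, was much steadier. It measured 14.09, 14.03, 14.01 and 13.71 in Eµ-Myc tumours 1 to 4 and 14.55, 14.20, 13.95 and 13.73 in Wrn tumours 1 to 4, a difference of 0.15 ± 0.21 (SE, limma, adjusted p = 0.986). Its highest value was in Wrn tumour 1 and its lowest in Eµ-Myc tumour 4, and Wrn tumours 1 and 2 lay above every Eµ-Myc tumour while the other Wrn tumours did not. Nolc1, which chaperones small nucleolar particles, and the GTP-binding protein Gnl3 (nucleostemin) differed by 0.043 and 0.0011 log2 units. Nolc1 had the narrowest range of all 32 genes over the tumours, 0.40 log2 units.

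Polr1a, the largest catalytic subunit of RNA polymerase I, measured 11.43, 10.67, 10.89 and 10.97 in Eµ-Myc tumours 1 to 4 and 11.07, 11.28, 11.13 and 11.21 in the Wrn tumours. The Wrn values lay inside the Eµ-Myc range, and the means of 10.99 ± 0.32 and 11.17 ± 0.094 (SD, n = 4 each) differed by 0.18 ± 0.19 (SE, limma, adjusted p = 0.973). Polr1c, a subunit shared by RNA polymerases I and III, differed by 0.042 ± 0.23 (SE, limma, adjusted p = 0.987).

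All 3 box C/D proteins lay slightly above 0 and all 3 box H/ACA proteins below 0, and every 95% interval included 0. Of the box C/D proteins, Fbl turned to −0.027 under median scaling and Nop58 to −0.12 without Eµ-Myc tumour 3. Fibrillarin (Fbl), the methyltransferase of the box C/D particle, measured 13.09, 12.93, 12.96 and 13.25 in Eµ-Myc tumours 1 to 4 and 13.39, 13.11, 13.14 and 12.94 in the Wrn tumours. Wrn tumour 1 lay above every Eµ-Myc tumour and the other Wrn tumours lay among them, over a span of less than 0.5 log2 units. The difference was 0.090 ± 0.17 (SE, limma, adjusted p = 0.986). Nop56 and Nop58, which hold the particle together, differed by 0.12 and 0.022.

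Nhp2, which binds the box H/ACA RNA, measured 12.50, 12.68, 12.18 and 12.53 in Eµ-Myc tumours 1 to 4 and 12.06, 12.29, 12.43 and 11.83 in the Wrn tumours. The genotypes overlapped through Eµ-Myc tumour 3, and the difference was −0.32 ± 0.19 (SE, limma, adjusted p = 0.973, exact two-sided permutation p = 0.143). A second, dimmer Nhp2 probe also lay below 0 (−0.23) but followed the first poorly over the tumours (r = 0.28). Gar1 and Nop10 differed by −0.18 and −0.14.

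Of the 8 small subunit factors tested, 5 lay below 0 and 3 above. Nop14, a processome scaffold, measured 7.84, 7.56, 7.39 and 9.04 in Eµ-Myc tumours 1 to 4 and 7.44, 7.56, 7.37 and 7.25 in the Wrn tumours. Eµ-Myc tumour 4 alone was high, and the other 7 lay within 0.6 log2 units of each other. The difference of −0.55 ± 0.32 (SE, limma, adjusted p = 0.973, exact two-sided permutation p = 0.114) was −0.19 without that tumour. Rrp12, an export factor for pre-ribosomes, measured 9.66, 10.36, 10.64 and 10.22 in Eµ-Myc tumours 1 to 4 and 9.10, 9.79, 9.81 and 10.30 in the Wrn tumours. Wrn tumour 1 was the lowest and Eµ-Myc tumour 3 the highest, with a difference of −0.47 ± 0.28 (SE, limma, adjusted p = 0.973, exact two-sided permutation p = 0.257). Imp4, a U3 particle protein, measured 11.61, 11.20, 11.55 and 11.51 in Eµ-Myc tumours 1 to 4 and 11.83, 11.41, 11.76 and 11.53 in the Wrn tumours. These overlapped and differed by 0.17 ± 0.18 (SE, limma, adjusted p = 0.973). Rcl1, Noc4l, Rrp9, Tsr1 and Heatr1 had differences between −0.28 and 0.054.

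Of the 12 large subunit factors tested, 4 lay above 0 and 8 below. Pes1, the pescadillo protein of the complex with Bop1, measured 8.06, 7.70, 8.18 and 6.68 in Eµ-Myc tumours 1 to 4 and 8.54, 7.76, 8.23 and 8.18 in the Wrn tumours. Eµ-Myc tumour 4 was again low, by about 1 log2 unit below the next tumour. The means of 7.65 ± 0.68 and 8.18 ± 0.32 (SD, n = 4 each) differed by 0.52 ± 0.32 (SE, limma, adjusted p = 0.973, exact two-sided permutation p = 0.171), and by 0.20 without that tumour. Mrto4, an assembly factor related to a ribosomal stalk protein, had the lowest unadjusted p of the 32 genes (0.0570). It measured 10.19, 9.87, 10.31 and 10.49 in Eµ-Myc tumours 1 to 4 and 9.94, 9.94, 9.87 and 9.45 in the Wrn tumours. Apart from Eµ-Myc tumour 2, the Eµ-Myc values exceeded every Wrn value, and the difference was −0.42 ± 0.20 (SE, limma, adjusted p = 0.973, exact two-sided permutation p = 0.0857, where the smallest possible is 0.0286). Ftsj3, Nip7, Ebna1bp2, Nop2, Ddx21, Bop1, Grwd1, Pa2g4, Ppan and Ddx18 had differences between −0.32 and 0.11.

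Markers of other cells were compared beside these values. All 12 tested macrophage and monocyte markers had a mean below that of Eµ-Myc in Wrn (median difference −0.51), and their mean log2 signal ranged from 7.98 to 8.52 in Eµ-Myc and from 7.63 to 8.16 in Wrn. All 3 tested erythroid markers also had the lower mean in Wrn (median difference −0.77), and all 10 tested B cell markers had the higher mean there (median difference 0.27). A lower mean in Wrn was also found for 3 of 4 tested T cell markers (median difference −0.43) and 5 of 6 granulocyte markers (−0.35). For stroma and endothelium it was found for 4 of 9 tested markers (median difference 0.023). The 7 tested cycling cell markers ranged from 9.37 to 9.82 in Eµ-Myc and from 9.51 to 9.86 in Wrn. Their part in the values of the nucleolar genes was not tested.

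The spread between tumours was narrow for most nucleolar genes. A range of over 1 log2 unit across the 8 tumours was found for 8 of the 32 (Ncl, Pes1, Nop14, Rrp12, Tsr1, Nip7, Noc4l and Mrto4) and for 45.2% of all tested genes, and the median range was 0.77 against 0.95 log2 units. The difference between these shares was not tested. Within this spread single tumours stood out. Eµ-Myc tumour 4 held the highest value of 13 of the 32 genes (40.6%, against 19.5% of all tested genes) and the lowest of 5 (15.6%, against 18.3%), namely Ncl, Npm1, Nolc1, Heatr1 and Pes1. Eµ-Myc tumour 2 held the lowest value of 11 (34.4%, against 15.0%), Wrn tumour 4 the lowest of 9 (28.1%, against 12.2%) and Wrn tumour 1 the highest of 9 (28.1%, against 15.3%). The median deviation of the 32 genes from their own means was 0.23 log2 units in Eµ-Myc tumour 4, 0.14 in Wrn tumour 1, −0.16 in Wrn tumour 4 and −0.17 in Eµ-Myc tumour 2. Tumours of both genotypes thus lay at each end.

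**Figure D2:**
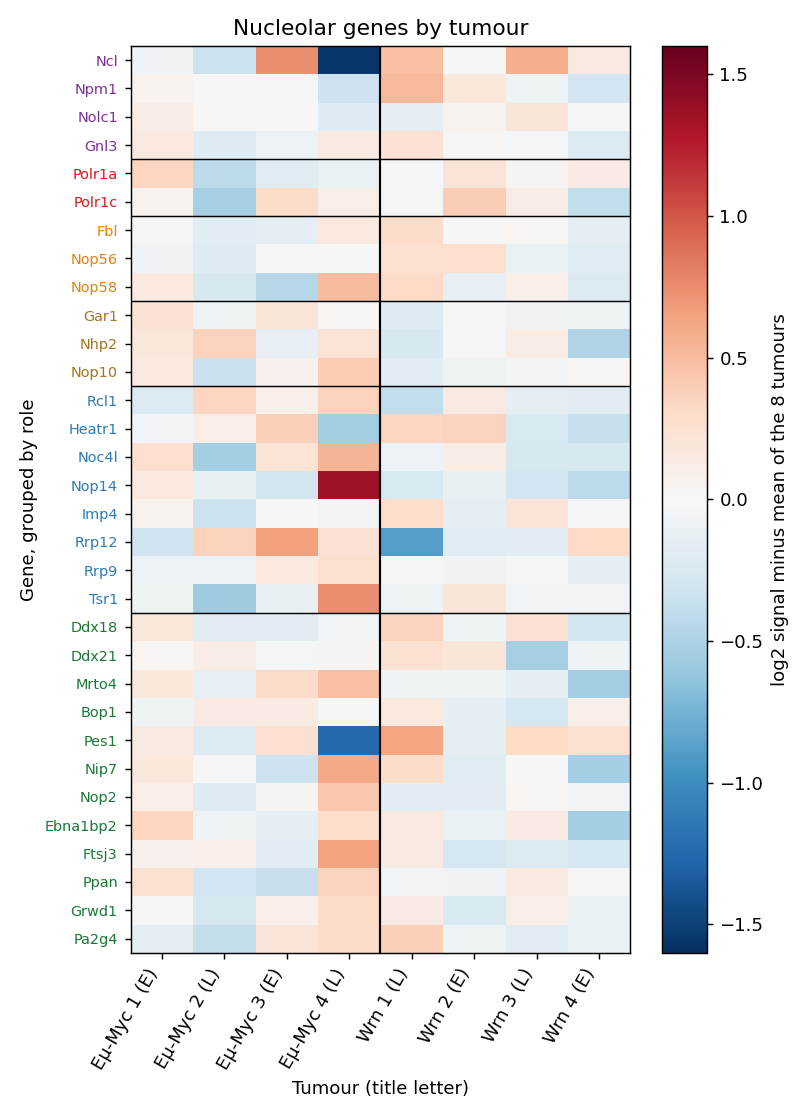
Log2 signal of each of the 32 tested genes (rows, grouped by role) in each tumour (columns, with the title letter), as the deviation from the gene's mean over the 8 tumours. The deepest cells are Ncl and Pes1 (low) and Nop14 (high), all in Eµ-Myc tumour 4, where 13 of the 32 genes had their highest value.

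In Eµ-Myc tumour 4 genes of the same role lay on both sides of their means. Low there were Ncl, Pes1 and Heatr1, the last a small subunit processome protein with 11.78, 11.94, 12.22 and 11.28 in Eµ-Myc tumours 1 to 4 and 12.18, 12.20, 11.59 and 11.47 in the Wrn tumours. High there were Nop14, Tsr1, Ftsj3, Nip7 and Nop58. Nip7, a large subunit factor, measured 11.03, 10.87, 10.53 and 11.47 in Eµ-Myc tumours 1 to 4 and 11.15, 10.67, 10.85 and 10.32 in the Wrn tumours. Ftsj3, a methyltransferase of the large subunit, measured 7.54, 7.58, 7.30 and 8.12 in Eµ-Myc tumours 1 to 4 and 7.62, 7.20, 7.24 and 7.20 in the Wrn tumours. The second probes of Ncl (7.47) and Heatr1 (9.52) were also at their lowest in this tumour. In it, the mean of B cell markers (9.13) and of T cell (5.32) and granulocyte (4.75) markers were the lowest of the 8 tumours. The granulocyte mean lay below the lowest detected value on that array (4.86), and Wrn tumour 3 was close to it (4.78). The T cell mean, from 4 of 11 listed genes, was also near that value. The part of these cells in the values was not tested.

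**Figure D3:**
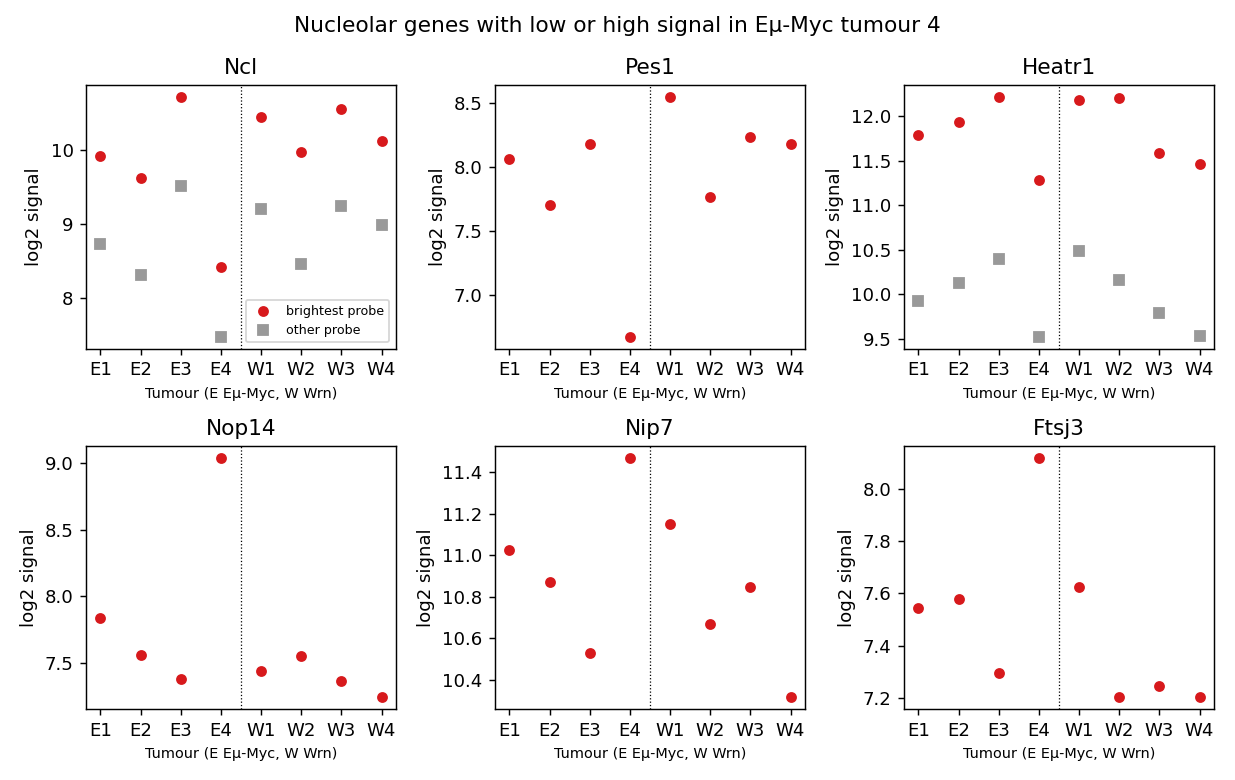
Log2 signal (y axis) of 6 genes in each of the 8 tumours (x axis, E for Eµ-Myc and W for Wrn), with the brightest probe in red and other probes detected on all arrays in grey; heights of different probes are not comparable. Ncl, Pes1 and Heatr1 are lowest and Nop14, Nip7 and Ftsj3 highest in Eµ-Myc tumour 4.

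Correlations between the genes over the 8 tumours are given as a description, since they share the same arrays and normalization. Over the 496 pairs of the 32 genes Pearson's r ran from −0.91 to 0.94, with a median of 0.17 and 62.5% of pairs above 0. Over all pairs of tested genes the median was 8.5e-05. Ncl and Pes1 varied together (r = 0.94, Spearman's rho = 0.88), and r was 0.75 without Eµ-Myc tumour 4. Ncl ran against Nop14 (r = −0.91), and Pes1 did too (r = −0.90), with values of −0.54 and −0.40 without that tumour. Other close pairs changed less when it was left out. Nop10 and Nop2 had r = 0.93 and 0.86, Nip7 and Ftsj3 0.89 and 0.80, and Fbl and Gnl3 0.89 and 0.87, with and without the tumour. Ddx18, a large subunit RNA helicase, and Rrp12 ran against each other (r = −0.87 both with and without it), as did Rcl1 and Pes1 (r = −0.82 and −0.87). For scale, different probes of the same gene had r between 0.28 and 0.98, with a median of 0.71 over 21 pairs in 13 genes.

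**Figure D4:**
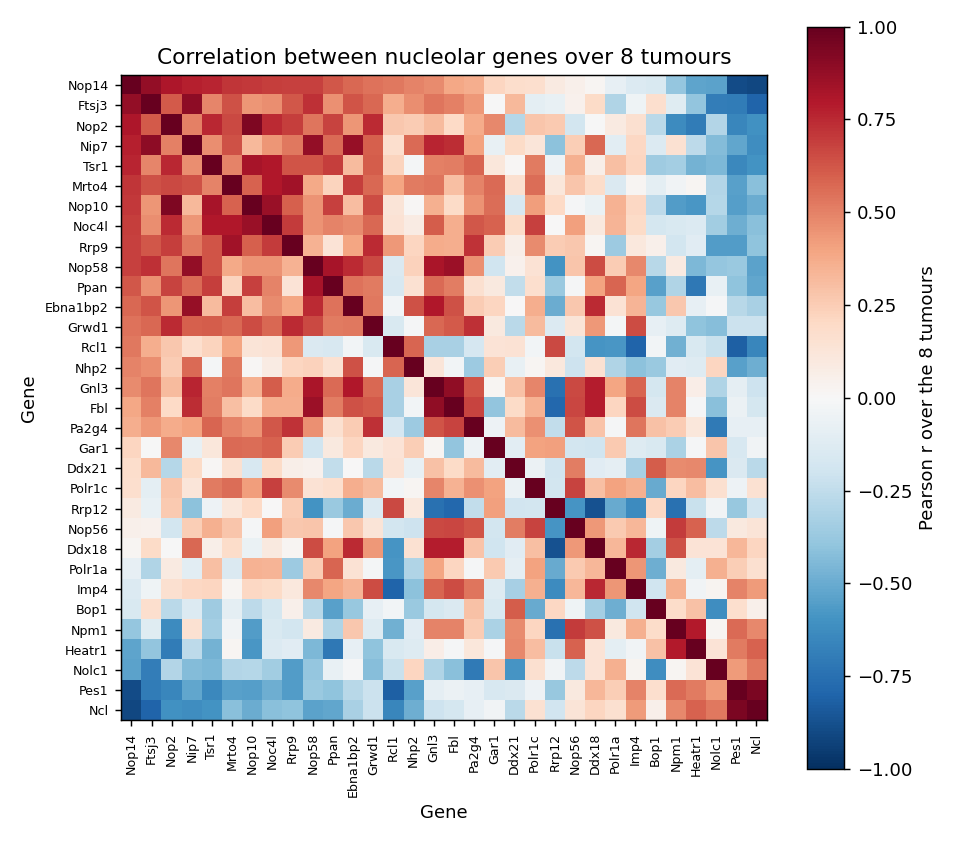
Pearson's r over the 8 tumours between each pair of the 32 tested genes (both axes, ordered alike by their correlation with Nop14). A block from Nop14 to Grwd1 runs together, and Ncl and Pes1 at the far end run together and against it, down to r = −0.91 for Ncl and Nop14.

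The mean centred profile of the 32 genes was compared with every other tested gene. The 10 closest, by Pearson's r over the 8 tumours, were Mgll (0.947), Thap4 (0.944), Smg8 (0.938), Kctd10 (0.934), Kat7 (0.932), Nfs1 (0.930), Coa8 (0.929), Ddost (0.927), Gpatch11 (0.926) and Nsun5 (0.923). The highest r of a nucleolar gene with the profile it contributes to was 0.880 for Gnl3. Rrp12 (−0.372), Nolc1 (−0.327), Pes1 (−0.287), Ncl (−0.263), Bop1 (−0.201) and Rcl1 (−0.061) had an r below 0.

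The next comparison set L against E tumours, with genotype in the model, and again no nucleolar gene was called. The limma test called 0 of the 32 (0.013% of all tested genes were), and none had an unadjusted p under 0.05 (7.62% of all tested genes did). The difference, L minus E, lay above 0 for 19 of the 32 (49.3% of all tested genes), with a median of 0.053, and its 95% interval stayed within 1 log2 unit for 30 of them (83.3% of all tested genes). The lowest p above 0 belonged to Nip7 (0.45 ± 0.21, SE, limma, adjusted p = 0.674), Ftsj3 (0.33 ± 0.19, adjusted p = 0.760) and Nop58 (0.33 ± 0.22, adjusted p = 0.791). All 3 had their highest value in Eµ-Myc tumour 4, an L tumour, and without it the Nip7 difference was 0.34. Nop58 measured 11.83, 11.41, 11.22 and 12.18 in Eµ-Myc tumours 1 to 4 and 11.99, 11.54, 11.76 and 11.45 in the Wrn tumours, and the letters overlapped. Below 0 the lowest p belonged to Polr1a (−0.24 ± 0.18, adjusted p = 0.814), Ncl (−0.42 ± 0.40, adjusted p = 0.836) and Gar1 (−0.16 ± 0.15, adjusted p = 0.840). Gar1 measured 12.78, 12.47, 12.74 and 12.58 in Eµ-Myc tumours 1 to 4 and 12.35, 12.53, 12.49 and 12.49 in the Wrn tumours, a span of 0.44 log2 units in all. The Ncl difference was −0.0071 without Eµ-Myc tumour 4.

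Whether the genotype difference depended on the letter was tested as an interaction, which in this design is the same contrast as tumours 1 and 3 against 2 and 4. None of the 32 genes was called (0.0% of all tested genes were), and 2 had an unadjusted p under 0.05 (5.06% of all tested genes did). The estimate lay above 0 for 22 of the 32 (49.7% of all tested genes). Under median scaling it did for 15 of the 32 and for 2569 of all 7665 tested genes. Without Eµ-Myc tumour 2 it did for 16 of the 32 and for 3683 of all 7523. Without Eµ-Myc tumour 4 it did for 27 of the 32 and for 3824 of all 7577. The 2 genes were Ncl (1.75 ± 0.59, SE, limma, unadjusted p = 0.0159, adjusted p = 0.937) and Pes1 (1.35 ± 0.50, unadjusted p = 0.0259, adjusted p = 0.937). Without Eµ-Myc tumour 4 the estimates were 1.15 (limma, adjusted p = 0.615) for Ncl and 0.84 (adjusted p = 0.670) for Pes1.

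The last comparison set each gene against Myc signal over the 8 tumours, as the change in log2 signal per log2 unit of Myc. No nucleolar gene was called by limma (0.117% of all other tested genes were), and 2 of the 32 had an unadjusted p under 0.05 (9.34% of all other tested genes did), both with a slope above 0 (4.79%). The slope lay above 0 for 25 of the 32 genes (52.6% of all other tested genes), with a median of 0.088 against 0.011. Most of the spread in Myc came from Eµ-Myc tumour 2. Without that tumour the median slope was 0.25, and r with Myc lay above 0 for 23 of the 32 (71.9%, against 50.5% of all other tested genes). The median r of the 32 was 0.26 over the 8 tumours and 0.19 without it. Myc lay only between 8.50 and 9.13 in the remaining tumours. None of the 32 then had an unadjusted p under 0.05 (limma, 203 of 7522 tested genes did). Eµ-Myc tumour 2 also had the highest T cell, macrophage and erythroid marker means, whose part in the slopes was not tested.

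Noc4l, a small subunit factor, had the lowest p. It measured 9.95, 9.14, 9.89 and 10.22 in Eµ-Myc tumours 1 to 4 and 9.59, 9.79, 9.42 and 9.43 in the Wrn tumours, lowest where Myc was lowest. Its slope was 0.36 ± 0.15 (SE, limma, unadjusted p = 0.0326, adjusted p = 0.473). Pearson's r was 0.737 (exact permutation p = 0.018, adjusted p = 0.635 over 11023 probes) and Spearman's rho 0.833 (exact permutation p = 0.015, adjusted p = 0.916). Without the 2 tumours farthest from the median Myc signal, Eµ-Myc tumour 2 and Wrn tumour 2, r was 0.730. A second Noc4l probe had a slope of 0.30.

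Polr1c measured 8.74, 8.15, 8.97 and 8.78 in Eµ-Myc tumours 1 to 4 and 8.65, 9.07, 8.80 and 8.28 in the Wrn tumours. Its slope was 0.32 ± 0.14 (SE, limma, unadjusted p = 0.0462, adjusted p = 0.532), with r = 0.721 (exact permutation p = 0.027, adjusted p = 0.648) and rho = 0.619 (exact permutation p = 0.115, adjusted p = 0.916). Without the 2 farthest tumours r was 0.047, so the relation rests on those tumours. Polr1a had a slope of 0.26 ± 0.13 (SE, limma, adjusted p = 0.600), with r = 0.773 (exact permutation p = 0.016, adjusted p = 0.635) and rho = 0.548 (exact permutation p = 0.171, adjusted p = 0.923). Its r fell to 0.392 without the same 2 tumours. Tsr1, a GTPase-like factor of the small subunit, measured 5.87, 5.38, 5.83 and 6.69 in Eµ-Myc tumours 1 to 4 and 5.87, 6.14, 5.91 and 5.90 in the Wrn tumours. It was lowest in Eµ-Myc tumour 2 and highest in Eµ-Myc tumour 4, with a slope of 0.35 ± 0.16 (SE, limma, adjusted p = 0.555). Its r was 0.670 (exact permutation p = 0.155, adjusted p = 0.793), its rho 0.443 (exact permutation p = 0.275, adjusted p = 0.924), and r was 0.263 without the 2 farthest tumours.

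**Figure D5:**
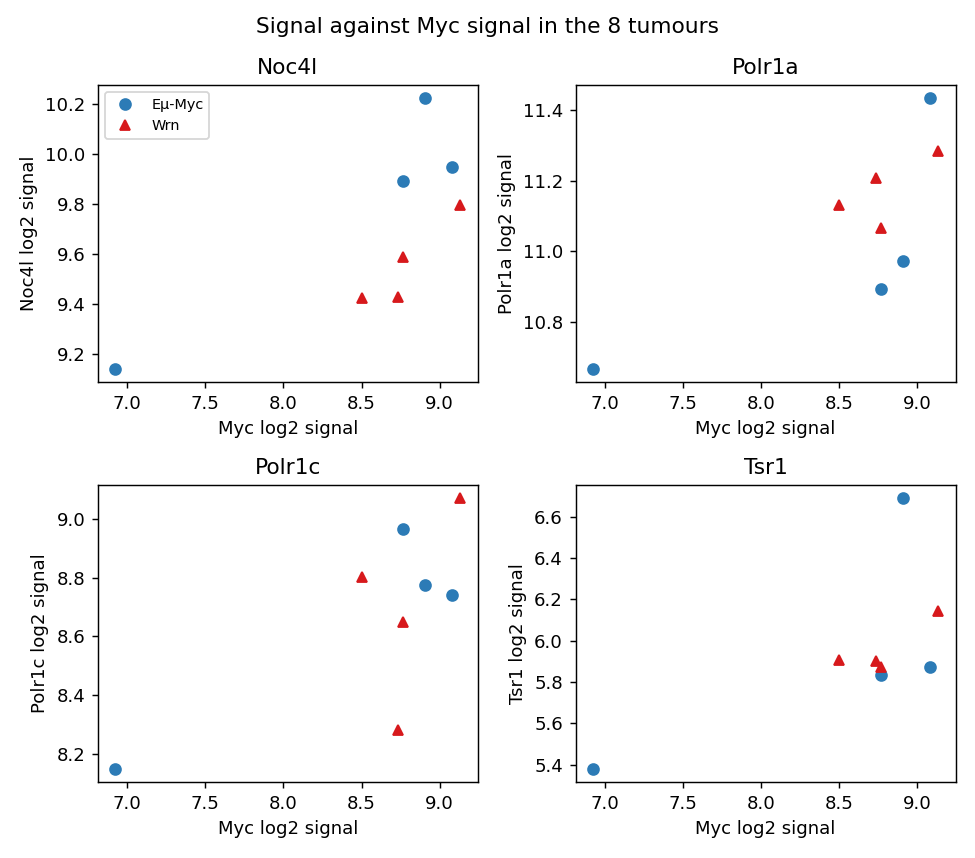
Log2 signal of Noc4l, Polr1a, Polr1c and Tsr1 (y axes) against log2 signal of Myc (x axes) in the 8 tumours, circles for Eµ-Myc and triangles for Wrn. Eµ-Myc tumour 2, at a Myc signal of 6.92, has the lowest value of all 4 genes, and the other 7 tumours lie between 8.50 and 9.13.

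The genes with the lowest p below 0 were Nhp2 (−0.17 ± 0.15, SE, limma, adjusted p = 0.892), Rcl1 (−0.16 ± 0.15, adjusted p = 0.912), Rrp12 (−0.22 ± 0.23, adjusted p = 0.913) and Bop1 (−0.070 ± 0.13, adjusted p = 0.959). Rcl1, a cyclase-like small subunit factor, measured 11.76, 12.33, 12.07 and 12.36 in Eµ-Myc tumours 1 to 4 and 11.60, 12.14, 11.85 and 11.82 in the Wrn tumours. Bop1, the partner of Pes1, measured 8.13, 8.33, 8.33 and 8.17 in Eµ-Myc tumours 1 to 4 and 8.37, 8.07, 7.93 and 8.31 in the Wrn tumours. Both were spread over the tumours with no order by Myc. Without Eµ-Myc tumour 2 the slopes of Nhp2 (0.32), Rcl1 (0.36) and Bop1 (0.0035) lay above 0. The slope of Ncl went the other way, from 0.069 ± 0.33 (SE) over the 8 tumours to −1.49 ± 1.11 (SE) without that tumour.

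The 5 genes with an E-box in the window, whose promoters were given above for Imp4, Nop2, Pes1 and Tsr1, had slopes on Myc between 0.033 and 0.35, with a median of 0.12. The 23 tested genes whose window lacked these letters had slopes between −0.17 and 0.36, with a median of 0.081. The ranges overlapped, and slopes below 0 were found among the genes whose window lacked the motif. Without Eµ-Myc tumour 2, however, Imp4 (−0.41), Grwd1 (−0.33) and Pes1 (−1.05) also had slopes below 0, so the positive slopes of these 3 genes rest on that tumour.

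A list of 125 further ribosome biogenesis genes was tested in the same way. Of these, 91 were tested, and none was called between genotypes by its brightest probe (limma, 0.0261% of all tested genes were). Among the 91, only Noc3l, a factor of the large subunit, had an unadjusted p under 0.05 (−0.50 ± 0.20, SE, limma, adjusted p = 0.973). Of all tested genes 3.85% did. The difference lay above 0 for 37 of the 91 (51.1% of all tested genes), and its median over the 91 was −0.045. Without Eµ-Myc tumour 4 that median was 0.048, and without Wrn tumour 4 it was 0.059. The next lowest p below 0 belonged to Dcaf13 (−0.38 ± 0.21) and Wdr74 (−0.40 ± 0.22), and the 3 lowest above 0 to Utp25 (0.36 ± 0.20), Rpf1 (0.17 ± 0.17) and Exosc5 (0.17 ± 0.17), all at an adjusted p of 0.973 (limma). By role, 12 of 32 small subunit, 14 of 39 large subunit and 6 of 11 nuclear exosome genes lay above 0. Mak16, a large subunit factor, was split between its probes. Its brightest probe differed by −0.18 ± 0.23 (SE, limma, adjusted p = 0.986) and a dimmer one by −5.18 ± 0.22 (SE), which was called. The cause of this split between probes of the same gene was not tested.

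Against Myc signal none of the 91 was called (limma, 0.117% of all tested genes other than Myc were). An unadjusted p under 0.05 was found for 6 (9.34% of all tested genes), all above 0 (4.79%). The slope lay above 0 for 70 of the 91 (52.6% of all tested genes), with a median of 0.11. The lowest p belonged to Ddx24, an RNA helicase (0.49 ± 0.12, SE, limma, adjusted p = 0.144), Nle1, a large subunit factor (0.62 ± 0.16, adjusted p = 0.168), and Wdr18, a large subunit factor (0.52 ± 0.19, adjusted p = 0.381). Below 0 it belonged to Exosc1, an exosome subunit (−0.30 ± 0.16, adjusted p = 0.676), Noc3l (−0.25) and Nvl (−0.23). Across the tumours the 91 genes had median deviations of 0.24 log2 units in Eµ-Myc tumour 4, −0.15 in Eµ-Myc tumour 2 and −0.28 in Wrn tumour 4, the same tumours at the ends as for the 32 nucleolar genes.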

How the data were processed

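Each tumour appears under 2 processings and was counted once. Per the labels' protocols, Trizol-extracted RNA was copied to biotinylated cRNA. The deposited non-normalized table holds, per the file headers, bead intensity and a detection p-value per probe. The deposited lumi values are background-subtracted intensity. The deposited Illumina GUI values are a score, whose square root matches log2 lumi values of bright probes within 0.0102. Versions and settings: not given in the sources used here. Tables were joined by ranks over the 8 arrays, all 25697 probes one to one. Symbols came from the platform annotation. Signals were corrected with neqc of limma 3.58.1 (R 4.3.3, offset 16, quantile, log2). The 11024 probes (7665 genes) detected at p under 0.01 on at least 4 arrays were tested with lmFit and eBayes, two-sided, Benjamini-Hochberg over all. The test was checked on simulated data. The simulated differences and Myc slopes were much larger than those of the nucleolar genes, so the check does not cover small changes. Alternatives were other offsets, normalizations, filters, probe rules and deposited tables, and leaving out each tumour. Same-numbered tumours did not deviate together (correlations from −0.21 to −0.0037), and the main fits used no pairing. Each such pair joins an E and an L tumour, so these correlations cannot decide whether tumours were paired. Values in every tumour are given for Ncl, Npm1, Fbl and the genes with the lowest p per contrast and direction or the largest SD. Members and lists were chosen with earlier results of these data known.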

Additional observations from a re-analysis of the deposited data

Results flagged for a closer look

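In 4 of 66 sets of 4 tumours, each 1 gene in 1 genotype, a tumour lay far from the other 3. The gap to its nearest neighbour, as a share of the group's range, was above Dixon's 95% critical value. Chance flags about 1 in 20 such sets. In Wrn, tumour 1 was high for Ftsj3 (gap 0.900 of the range), tumour 2 was high for Tsr1 (0.873) and tumour 4 was low for Mrto4 (0.852). In Eµ-Myc, tumour 2 was low for Myc (0.854).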

How the results depend on the processing

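Over the alternatives run, the counts of nucleolar genes called between genotypes, between letters, in the interaction and against Myc were all 0, also with each tumour left out in turn. Of the other biogenesis genes, 1 was called between genotypes, Mak16, when all tested probes of a gene were averaged. That call follows its dimmer probe, as its brightest probe was not called in the main fit. Named genes were counted only in the contrasts they were followed in. Turns outside this count included Nop58 between genotypes and Ncl, Imp4, Grwd1 and Pes1 against Myc. Within it, named genes kept their direction and side of the threshold in 431 of the values recomputed, and 5 turned direction. Under median scaling the genotype differences of Npm1 (−0.00071) and Fbl (−0.027) fell below 0. With 1 tumour left out, the Myc slopes ran from −0.22 to 0.32 for Nhp2, from −0.20 to 0.36 for Rcl1 and from −0.080 to 0.0035 for Bop1, each above 0 without Eµ-Myc replicate 2. The median Myc slope of the nucleolar genes ran from 0.080 to 0.25 with 1 tumour left out, the last without Eµ-Myc replicate 2, the tumour with the lowest Myc. The median genotype difference ran from −0.12 to −0.00035 and the median letter difference from −0.011 to 0.16. With the replicate number as a block, 0 nucleolar genes were called between genotypes and the median stayed −0.027. Over all tested genes, calls ran from 0 to 2 between genotypes, 0 to 6 between letters and 0 to 32 against Myc, where the main counts were 2, 1 and 9. The median interaction over all tested genes moved from −0.0038 to −0.20 under median scaling. The causes were not tested. With 4 tumours per genotype, intervals of Ncl, Pes1, Nop14 and Rrp12 reach past 1 log2 unit.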
